A study of Mus musculus with 8 samples.

Results

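Collagens are the triple-helical proteins of the extracellular matrix, and they were measured here in the liver and in the epididymal white adipose tissue (eWAT) of mice with and without a knockout label for Crtc1, a coactivator of the cAMP-responsive transcription factor CREB. The genes were taken by symbol, as every gene of the count table named Col, a number, the letter a and a number, which gave 44 collagens among 19348 genes. RNA-seq covered 8 libraries, 2 for each tissue and each of the genotype labels Crtc1-/- and Crtc1+/+. All animals were C57BL/6 males aged 12 weeks that had eaten a normal diet and were killed after a fast of 16 h. The knockout line was made with CRISPR/Cas9 and 2 guides against Crtc1, so the gene was targeted in the whole animal, and homozygous mice and wild-type littermates came from crosses of heterozygotes. Each library came from a piece of whole tissue, in which fewer cells of a type and less RNA per cell cannot be told apart.

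A collagen molecule is built from 3 chains wound around each other, and the chain genes fall into classes by what the molecules assemble into. Fibrillar collagens (types I, II, III, V, XI, XXIV and XXVII) form the banded fibres that give tissue its tensile strength, type IV collagen forms the sheet of basement membranes, and type VI forms beaded filaments between fibres and basement membranes. FACIT collagens sit on the surface of fibres, while others anchor epithelia to the matrix (type VII) or span cell membranes (types XIII, XVII, XXIII and XXV). In adipose tissue every mature adipocyte is wrapped in a basement membrane rich in types IV and VI, and in liver the sinusoids lack a continuous basement membrane while hepatocytes make type XVIII, the precursor of endostatin. The 44 genes comprised 11 fibrillar, 8 basement membrane, 6 beaded filament and 9 FACIT collagens, and 10 of the network, anchoring, transmembrane and other kinds.

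Total counts lay between 16560070 and 19721464 per library, so that a floor of 3 counts equalled 0.152 to 0.181 CPM (counts scaled to the library total), and 42 of the 44 collagens exceeded that floor in at least 1 library. The exceptions were Col10a1, with at most 2 counts in eWAT and 0 in liver, and Col24a1, with 0 in eWAT and at most 3 in liver. The knockout label was not matched by a fall in the counts of Crtc1 itself. In eWAT its level was 58.5 and 33.6 CPM in the libraries labelled Crtc1-/- against 32.6 and 33.7 in those labelled Crtc1+/+, and in liver it was 22.1 and 18.0 against 11.7 and 9.87. The log2 fold change of Crtc1-/- against Crtc1+/+ was 0.48 in eWAT (edgeR adjusted p = 0.396) and 0.89 in liver (edgeR adjusted p = 0.184). Counts over the whole gene include exons outside the targeted part, and their share in these values was not tested. Directions below are therefore given between labels. The libraries also differed in markers of other cells, summed over 5 genes each and given as a percentage of all counts. Epididymis markers made up 6.18% and 7.01% in eWAT labelled Crtc1+/+ but 0.000238% and 0.000834% under the label Crtc1-/-, where the defensin Defb15 was at 0. Adipocyte markers made up 0.0969% and 0.180% in eWAT labelled Crtc1+/+ against 2.61% and 1.21% in eWAT labelled Crtc1-/-. Hepatocyte markers reached 7.68% in eWAT labelled Crtc1-/- replicate 2, against 0.0577% to 0.453% in the other eWAT libraries and 13.9% to 18.0% in liver. Because the epididymis signal coincided with the label in eWAT, the genotype and the tissue content of those libraries cannot be told apart.

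**Figure D1:**
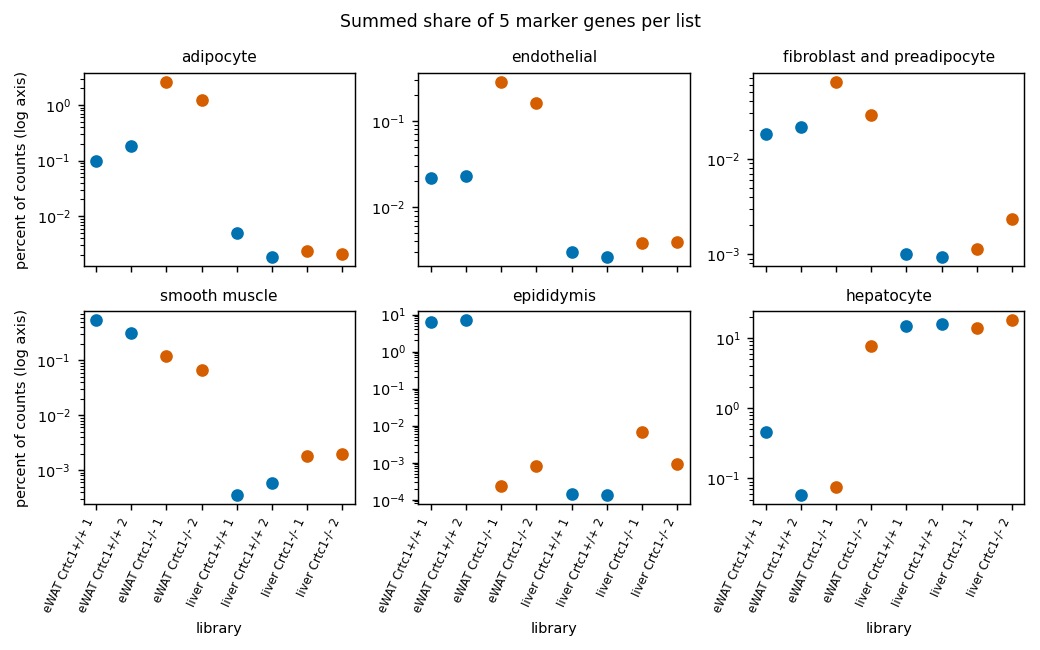
Percentage of all counts (vertical axis, log scale) taken by 5 marker genes for each of 6 cell types or tissues in the 8 libraries (horizontal axis); blue points are labelled Crtc1+/+ and orange points Crtc1-/-. Epididymis markers stand at 6.18% and 7.01% in eWAT labelled Crtc1+/+, and hepatocyte markers at 7.68% in eWAT labelled Crtc1-/- replicate 2.

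The sequences shown lie at or before the starts of collagen genes picked for a shared start, a large called change or a high liver level. Col4a1 and Col4a2 lie head to head on chromosome 8 (GRCm38; Col4a1 at chr8:11198423-11312826 on the minus strand and Col4a2 at chr8:11312805-11449287 on the plus strand), and their annotated first exons overlap by 22 bases. The shared piece, chr8:11312805-11312826 read on the plus strand, is shown because both transcripts begin in it, facing apart.
Col4a1 and Col4a2, shared start: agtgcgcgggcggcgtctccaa
Among collagens, Col5a3 had the largest called rise in eWAT, Col17a1 the largest called fall, and Col18a1 was the most abundant in liver. The RefSeq bases (GRCm38.p6) upstream of these genes follow. They span chr9:20815068-20815317, chr19:47692095-47692292 and chr10:77166549-77166780, all read 5′ to 3′ on the minus strand, and stop where an annotated exon begins. Capitals mark a CCAAT box, a GC box (GGGCGG) or a TATA box (TATAAA) on either strand.
Col5a3: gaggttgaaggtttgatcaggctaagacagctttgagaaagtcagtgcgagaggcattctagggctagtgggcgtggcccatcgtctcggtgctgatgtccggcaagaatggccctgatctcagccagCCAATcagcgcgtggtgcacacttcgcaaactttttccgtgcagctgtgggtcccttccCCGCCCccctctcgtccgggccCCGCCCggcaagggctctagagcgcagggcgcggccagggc
Col17a1: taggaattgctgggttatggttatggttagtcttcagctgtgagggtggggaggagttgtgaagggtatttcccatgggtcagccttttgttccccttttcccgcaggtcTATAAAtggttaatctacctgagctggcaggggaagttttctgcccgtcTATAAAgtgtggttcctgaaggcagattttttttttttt
Col18a1: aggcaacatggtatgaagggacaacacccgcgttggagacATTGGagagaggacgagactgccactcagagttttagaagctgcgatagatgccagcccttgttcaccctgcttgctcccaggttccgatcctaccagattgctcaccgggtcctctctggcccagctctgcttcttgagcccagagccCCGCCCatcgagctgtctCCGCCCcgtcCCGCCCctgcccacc
Upstream of Col5a3 there was 1 CCAAT box and 2 GC boxes, and upstream of Col17a1 there were 2 TATA boxes and no GC box. Windows of 300 bases around the start were at hand for 35 of the 44 collagens, 38 windows in all. A GC box was present in 23 of them (60.5%), against 35.7% of the 32851 windows of all genes. The full cAMP response element TGACGTCA, the palindrome bound by CREB, was in 1 collagen window (2.63%), that of Col24a1, against 1.79% of all windows. The shorter TGACG was in 4 collagen windows (10.5%), those of Col11a2, Col24a1, Col4a5 and Col7a1, against 20.8% of all windows. Every full element also holds the shorter one. No collagen window held the DR1 direct repeat bound by PPAR and RXR receptors, which 0.0396% of all windows held. These are matches of letters on either strand within the windows, not measured binding. Which start of Col18a1 was used in liver was not measured.

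The summed level of the 44 collagens was higher in eWAT than in liver and differed in make-up. FPKM are the fragment counts that the authors scaled to transcript length and sequencing depth and deposited. Their sum was 2811 and 1174 in eWAT labelled Crtc1-/- but 1059 and 716 under the label Crtc1+/+. In liver they were 216 and 165 in the libraries labelled Crtc1-/- and 180 and 194 in those labelled Crtc1+/+. Both eWAT libraries labelled Crtc1-/- thus lay above both labelled Crtc1+/+, whereas the liver groups overlapped. The ratio of group means, labelled Crtc1-/- over Crtc1+/+, was 2.25 in eWAT and 1.02 in liver. Without eWAT labelled Crtc1-/- replicate 1 the eWAT ratio was 1.32, and without replicate 2 it was 3.17. With 2 libraries against 2, an exact permutation test cannot give a two-sided p below 0.33, so no test of these sums is reported.

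Basement membrane collagens took a larger share of the collagen signal in eWAT labelled Crtc1-/-, and fibrillar collagens a smaller one. Basement membrane genes made up 41.3% and 57.4% of summed collagen FPKM in eWAT labelled Crtc1-/- against 15.9% and 21.2% in eWAT labelled Crtc1+/+. Fibrillar genes made up 38.4% and 25.9% against 61.7% and 57.0%. In neither class did the eWAT groups overlap. Type VI filaments held 15.8% to 19.3% in all 4 eWAT libraries, and FACIT collagens 0.663% and 0.705% in those labelled Crtc1-/- against 3.26% and 3.57%. In liver, basement membrane genes held 75.8% to 90.9%, of which nearly everything was Col18a1, at 67.9% to 84.8% of all collagen FPKM.

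**Figure D2:**
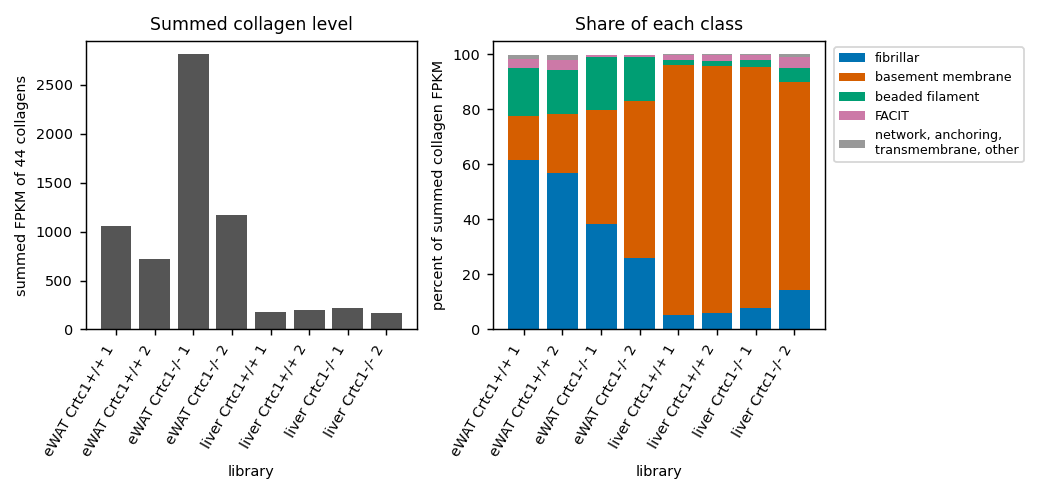
Summed FPKM of the 44 collagens (left, bars from 0) and the percentage of that sum in each of 5 classes (right, stacked bars) in the 8 libraries. The basement membrane share is 41.3% and 57.4% in eWAT labelled Crtc1-/- but 15.9% and 21.2% under the label Crtc1+/+, and it is 75.8% to 90.9% in the liver libraries.

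**Figure D3:**
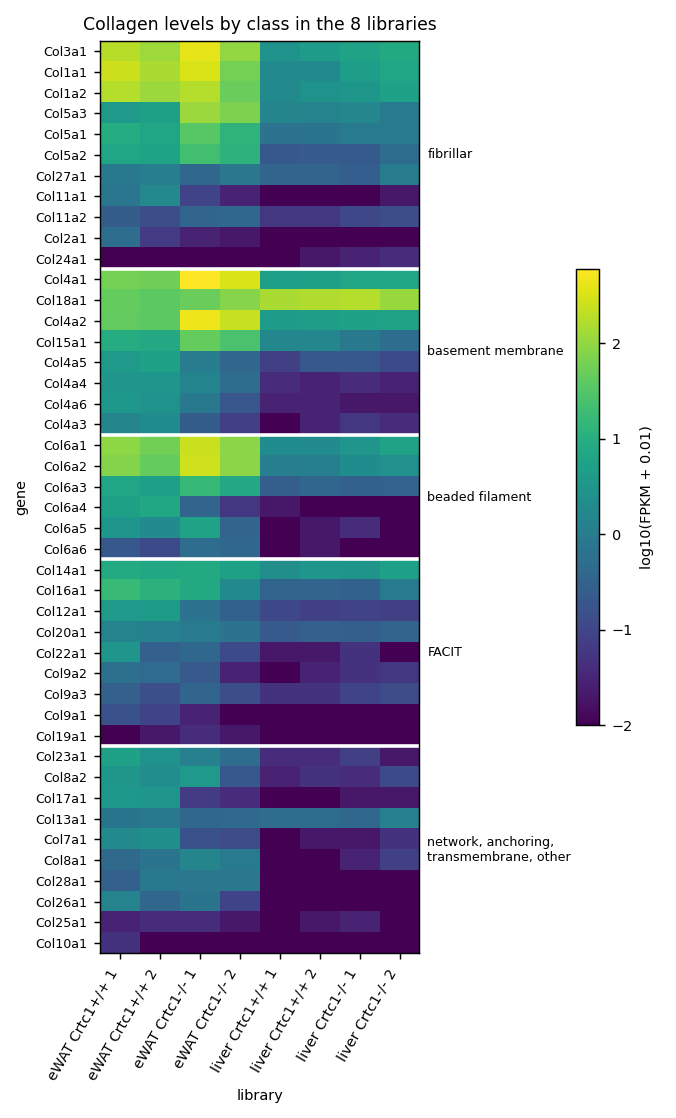
Levels of the 44 collagens (rows, grouped by class and ordered by mean FPKM) in the 8 libraries (columns), as log10(FPKM + 0.01). Col4a1, Col4a2 and Col5a3 are brighter in eWAT labelled Crtc1-/-, several low-level genes are darker there, and Col18a1 is the only collagen brightest in liver among those above 10 FPKM.

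The comparison of genotype labels in eWAT asked how collagen transcripts differed between the labelled knockout and wild-type fat. The chains of type IV collagen that line vessels and adipocytes, Col4a1 and Col4a2, were 9.77-fold and 10.7-fold higher in the libraries labelled Crtc1-/-, Col5a3 was 25.0-fold higher, and Col15a1 and Col5a2 rose by 5.18-fold and 3.24-fold. Col17a1 and Col7a1, which fasten stratified epithelia to their basement membrane, fell with Col12a1 and Col6a4. The 2 chains of type I collagen did not differ beyond the spread of the libraries. The filter on low counts left 38 collagens among 15391 genes, over which the p-values of edgeR's quasi-likelihood test were adjusted. At an adjusted p under 0.05, 5 collagens were higher and 4 lower, 9 of 38, where 12.2% of all genes were called (6.65% higher and 5.54% lower). By the threshold of the study's own methods (log2 fold change beyond 1 and unadjusted p under 0.01), 5 were higher and 7 lower, where 15.9% of all genes were called (8.37% higher and 7.54% lower). The median log2 fold change was -0.041 over the collagens tested and -0.047 over all genes tested. On counts scaled by the trimmed mean of M-values (TMM), both libraries labelled Crtc1-/- lay above both labelled Crtc1+/+ for 14 collagens and below both for another 14, 28 of 38 where 66.6% of all genes did not overlap (31.3% above and 35.4% below). No gene kept a call at the adjusted p when either library labelled Crtc1+/+ was left out, with 2 libraries against 1. Leaving out a library labelled Crtc1-/- also leaves 1 in its group, and the collagens called then depended on which was left out.

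Among basement membrane collagens, Col4a1 and Col4a2 encode the chains of the common type IV network, which is made of 2 Col4a1 chains and 1 Col4a2 chain. Col4a1 stood at 605 and 324 FPKM in eWAT labelled Crtc1-/- and at 59.9 and 55.6 FPKM in eWAT labelled Crtc1+/+. Col4a2 stood at 459 and 242 FPKM against 42.1 and 37.7 FPKM. For each gene both libraries labelled Crtc1-/- were far above both others, and the ratio of Col4a1 to Col4a2 FPKM was between 1.15 and 1.48 in all 8 libraries. The log2 fold change was 3.29 for Col4a1 (SE 0.50, edgeR adjusted p = 0.0264) and 3.42 for Col4a2 (SE 0.49, edgeR adjusted p = 0.0236). Without replicate 2 of the label Crtc1-/-, the library with hepatocyte markers, the log2 fold changes were 3.54 and 3.68. Col4a1 made up 21.5% and 27.6% of all collagen FPKM in eWAT labelled Crtc1-/- against 5.66% and 7.77% in the other eWAT libraries.

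The other type IV chains went the other way. Col4a3, Col4a4 and Col4a5 form the network of the kidney glomerulus and some other epithelia, and Col4a5 and Col4a6 that of smooth muscle and skin. Each pair is also arranged head to head, Col4a3 and Col4a4 on chromosome 1 with 71 bp between them and Col4a5 and Col4a6 on chromosome X with 1308 bp. Col4a3 stood at 0.25 and 0.07 FPKM in eWAT labelled Crtc1-/- against 1.48 and 2.13 FPKM in eWAT labelled Crtc1+/+, for a log2 fold change of -3.26 (SE 0.72, edgeR adjusted p = 0.0511). Col4a5 stood at 1.02 and 0.37 FPKM against 3.74 and 5.33 FPKM, for a log2 fold change of -2.46 (SE 0.56, edgeR adjusted p = 0.0551). Both passed the study's threshold and missed the adjusted one. Their partners also lay below both libraries labelled Crtc1+/+, with a log2 fold change of -1.50 for Col4a4 (edgeR adjusted p = 0.121) and -2.36 for Col4a6 (edgeR adjusted p = 0.0916), without being called. The pairs were thus on the same side within each head-to-head locus, 2 genes above and 4 below. Col4a3 shares 563 exon bases with an antisense transcript, so its counts are less certain if strand was not used.

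Col15a1 and Col18a1 encode the multiplexins, basement membrane collagens that carry heparan or chondroitin sulfate chains. Col15a1, a component of the outer basement membrane of capillaries, muscle and adipocytes, stood at 44.7 and 26.0 FPKM in eWAT labelled Crtc1-/- and at 9.13 and 7.55 FPKM in eWAT labelled Crtc1+/+. Its log2 fold change was 2.37 (SE 0.32, edgeR adjusted p = 0.0223). Col18a1 stood at 49.6 and 80.2 FPKM against 45.0 and 37.4 FPKM, which did not overlap but did not pass the test (log2 fold change 1.03, SE 0.43, edgeR adjusted p = 0.170). Its highest eWAT value was in replicate 2 of the label Crtc1-/-, the library with 7.68% hepatocyte markers, and without that library its log2 fold change was 0.45. The part of the hepatocyte signal in this value was not tested beyond leaving the library out.

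Fibrillar collagens split between type V and type I. Type V collagen is the minor fibrillar component that starts fibre assembly and limits fibre width, and the third of its chains, Col5a3 (chr9:20770050-20815067, minus strand), stood at 113 and 68.4 FPKM in eWAT labelled Crtc1-/- and at 3.64 and 5.21 FPKM in eWAT labelled Crtc1+/+. The groups were far apart, and the log2 fold change of 4.64 (SE 0.44, edgeR adjusted p = 0.0165) was the largest rise among the collagens tested. Col5a2 stood at 21.3 and 12.1 FPKM against 6.59 and 5.98 FPKM, for a log2 fold change of 1.70 (SE 0.31, edgeR adjusted p = 0.0354). Col5a1, the chain that every type V molecule contains, stood at 35.0 and 13.0 FPKM against 9.0 and 6.72 FPKM. Its log2 fold change of 1.87 (SE 0.48) was not called with an edgeR adjusted p of 0.0671, although its groups did not overlap either.

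Type I and type III collagen, the bulk of fibrous matrix, varied widely between the replicates. Col1a1 stood at 330 and 60.3 FPKM in eWAT labelled Crtc1-/- and at 264 and 147 FPKM in eWAT labelled Crtc1+/+, with its highest and its lowest eWAT value under the same label. Its log2 fold change was 0.16 (SE 0.80, edgeR adjusted p = 0.903), and it was -1.30 without replicate 1 of the label Crtc1-/- and below 0 under library-size and upper-quartile scaling and on the FPKM scale as well. Col1a2 stood at 180 and 48.0 FPKM against 181 and 117 FPKM (log2 fold change -0.14, SE 0.63, edgeR adjusted p = 0.891), and its sign turned to 0.44 without replicate 2 of the label Crtc1-/-. Col3a1 stood at 400 and 101 FPKM against 187 and 123 FPKM (log2 fold change 0.94, SE 0.68, edgeR adjusted p = 0.366). It was -0.15 without replicate 1 and 1.53 without replicate 2, with 1 library then left under the label Crtc1-/-. After TMM scaling, the level in replicate 1 of the label Crtc1-/- exceeded that in replicate 2 by 4.54-fold for Col1a1, 3.28-fold for Col3a1 and 3.10-fold for Col1a2, against 1.55-fold for Col4a1 and 1.37-fold for Col5a3. Fibroblast and preadipocyte markers summed to 0.0640% of counts in replicate 1 and 0.0291% in replicate 2 of that label, against 0.0182% and 0.0215% in eWAT labelled Crtc1+/+. Within that list Dpt and Pdgfrb were called higher and Pdgfra lower, with log2 fold changes of 3.58, 2.34 and -2.71 (edgeR adjusted p = 0.0197, 0.0263 and 0.0386). The part of these cells in the result was not tested.

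Col11a1, the cartilage-type minor fibrillar chain, was the fibrillar gene that fell by the study's threshold. It stood at 0.08 and 0.02 FPKM in eWAT labelled Crtc1-/- and at 0.74 and 1.74 FPKM in eWAT labelled Crtc1+/+, with no overlap, and its log2 fold change was -4.34 (SE 0.99, edgeR adjusted p = 0.0541). Col2a1, the main collagen of cartilage, had at most 44 counts in eWAT and was not tested. Its mean in eWAT labelled Crtc1+/+ was at least 8.09-fold higher than the 3-count floor that both libraries labelled Crtc1-/- were under, and most of that came from 1 library (0.50 and 0.06 FPKM).

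Type VI filaments link fibres to basement membranes and surround adipocytes, and their main molecule is made of Col6a1, Col6a2 and the longer Col6a3. Col6a1 stood at 252 and 89.1 FPKM in eWAT labelled Crtc1-/- and at 93.4 and 58.6 FPKM in eWAT labelled Crtc1+/+, overlapping as FPKM and not after TMM scaling. Col6a2 stood at 268 and 87.6 FPKM against 77.4 and 44.1 FPKM, and Col6a3 at 16.2 and 7.6 FPKM against 6.33 and 4.94 FPKM. The log2 fold changes of 1.43, 1.81 and 1.35 (SE 0.55, 0.59 and 0.38) were not called, with edgeR adjusted p of 0.147, 0.110 and 0.0801. Without replicate 2 of the label Crtc1-/- they were 1.90, 2.31 and 1.68, with 1 library left under that label. Col6a4, a gene for a chain that can take the place of Col6a3, went the other way. It stood at 0.36 and 0.05 FPKM against 5.18 and 7.38 FPKM, for a log2 fold change of -4.72 (SE 0.88, edgeR adjusted p = 0.0362). Its exons share 289 bases with antisense or unclassified transcripts.

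Among the FACIT and the network, anchoring and transmembrane collagens, 3 of the 15 tested were called and all 3 were lower, where 5.54% of all genes were called lower and 6.65% higher. Col17a1 (chr19:47646344-47692094, minus strand), the transmembrane collagen of hemidesmosomes, stood at 0.06 and 0.03 FPKM in eWAT labelled Crtc1-/- and at 3.57 and 3.25 FPKM in eWAT labelled Crtc1+/+. Its log2 fold change was -5.87 (SE 0.56, edgeR adjusted p = 0.0165), the largest fall among the collagens tested. Col7a1, the anchoring fibril beneath such epithelia, stood at 0.15 and 0.12 FPKM against 1.95 and 2.41 FPKM, for a log2 fold change of -3.71 (SE 0.45, edgeR adjusted p = 0.0193). Col12a1, a FACIT collagen of dense connective tissue, stood at 0.65 and 0.29 FPKM against 3.76 and 4.01 FPKM, for a log2 fold change of -2.83 (SE 0.46, edgeR adjusted p = 0.0289). The 7 collagens lower by the study's threshold were picked by label, so a match with epididymis markers in eWAT was fixed by that choice. The eWAT libraries labelled Crtc1+/+, in which they were higher, held those markers at 6.18% and 7.01%. Smooth muscle markers also summed higher there, at 0.537% and 0.317% against 0.119% and 0.0657%, with 2 of 5 called lower under the label Crtc1-/-. Schwann cell markers summed to 0.00749% and 0.00742% against 0.000784% and 0.000114%, of which Ncam1 alone held 0.00634% and 0.00713%. None of the 4 Schwann markers tested was called by edgeR under either rule. At an unadjusted p under 0.05 there was 1, where 33.3% of all genes were. Endothelial markers were higher under the label Crtc1-/-, at 0.282% and 0.162% in eWAT against 0.0215% and 0.0229%. All 5 of the endothelial, 4 of the 5 adipocyte and 2 of the 5 macrophage markers were called higher. The part of these cell types in the collagen differences was not tested.

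**Figure D4:**
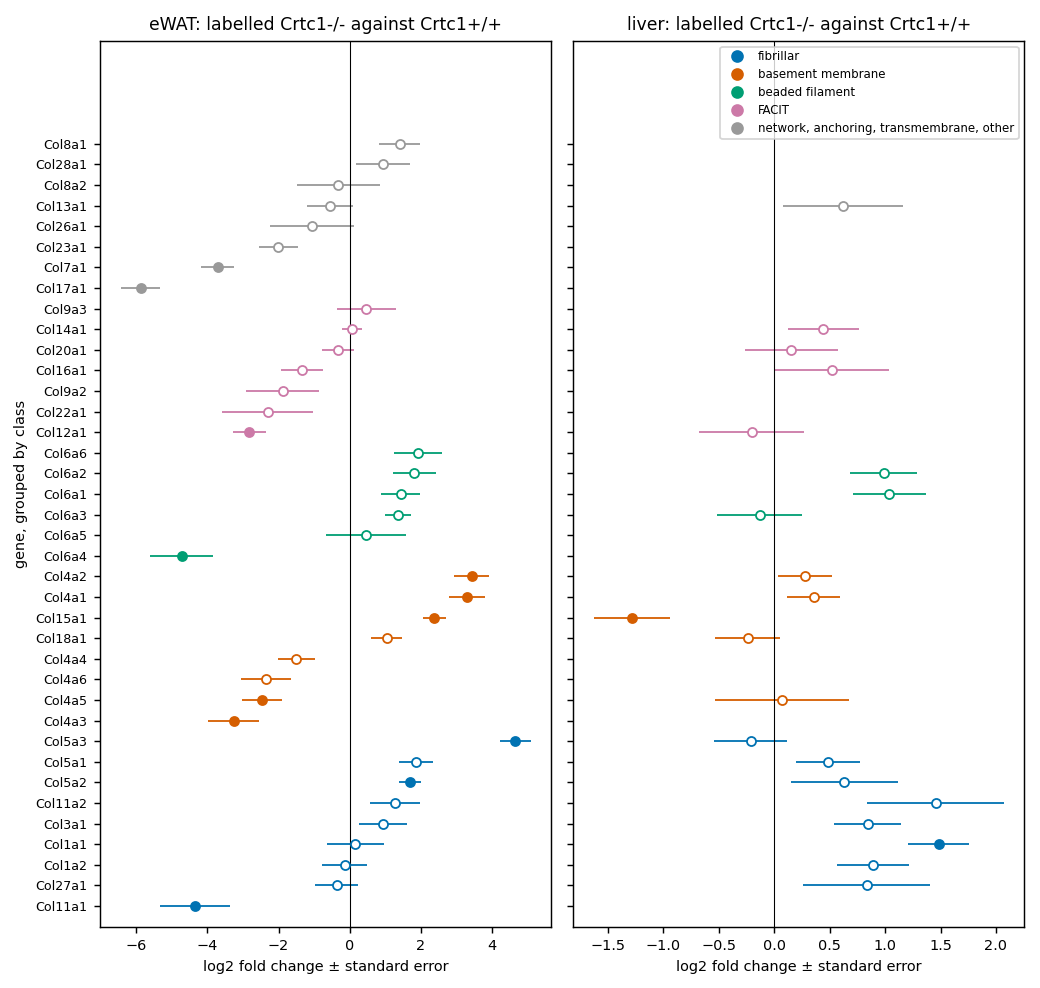
Log2 fold change of libraries labelled Crtc1-/- against Crtc1+/+ (horizontal axis, 2 libraries a group) for each collagen tested (vertical axis, coloured by class) in eWAT (left) and liver (right, a narrower scale). Bars are standard errors worked back from the edgeR F statistic. Filled points passed a log2 fold change beyond 1 with an unadjusted p under 0.01, 5 to the right and 7 to the left in eWAT and 1 on each side in liver.

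The other tested collagens reached at most 16.8 FPKM in eWAT, the value of Col16a1 in replicate 1 of the label Crtc1+/+. Of these, Col8a1, Col6a6, Col11a2 and Col28a1 lay above in both libraries labelled Crtc1-/- after TMM scaling, and Col16a1, Col23a1, Col13a1, Col20a1 and Col9a2 lay below, without being called. Col23a1, a transmembrane collagen, stood at 1.21 and 0.51 FPKM under the label Crtc1-/- and at 5.50 and 2.87 FPKM under Crtc1+/+ (log2 fold change -2.00, SE 0.56, edgeR adjusted p = 0.0804). The most even was Col14a1, a FACIT collagen of tendon and skin, at 8.05 and 5.13 FPKM in eWAT labelled Crtc1-/- against 8.37 and 7.23 FPKM (log2 fold change 0.059, SE 0.29). Replicates of the label Crtc1-/- disagreed most for Col8a2, a network collagen, and Col6a5, an alternative type VI chain, whose TMM-scaled levels were 14.9-fold and 13.6-fold higher in replicate 1 than in replicate 2. Genes not tested in eWAT for low counts were Col10a1, Col19a1, Col24a1, Col25a1, Col2a1 and Col9a1.

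In liver the collagens tested were not called between labels at the adjusted threshold, while their median change lay above that of all genes. Col1a1 was 2.79-fold higher in the libraries labelled Crtc1-/- and Col15a1 2.43-fold lower by the study's threshold, and Col4a1, Col4a2 and Col5a3 were not called. Of 21 collagens that passed the filter, none was called at an adjusted p under 0.05 by edgeR, where 0.0854% of all 11707 genes were called. At an unadjusted p under 0.05 there were 7 of 21, where 17.3% of all genes were, and DESeq2 called 1 at an adjusted p under 0.05, and limma called 0. By the study's threshold Col1a1 was higher and Col15a1 lower, 2 of 21 where 4.27% of all genes were called (2.84% higher and 1.43% lower). The median log2 fold change was 0.48 over the 21 collagens and 0.0039 over all genes tested. Both libraries labelled Crtc1-/- lay above both labelled Crtc1+/+ for 9 collagens and below for 1, 10 of 21 where 52.1% of all genes did not overlap (25.8% above and 26.4% below).

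Col1a1 stood at 4.57 and 6.40 FPKM in liver labelled Crtc1-/- and at 1.90 and 1.88 FPKM in liver labelled Crtc1+/+, for a log2 fold change of 1.48 (SE 0.27, edgeR adjusted p = 0.0830). Col1a2 stood at 3.32 and 5.54 FPKM against 1.88 and 2.70 FPKM, and Col3a1 at 5.57 and 7.91 FPKM against 2.84 and 4.39 FPKM. The log2 fold changes of 0.89 and 0.84 were not called (edgeR adjusted p = 0.231 and 0.227). For these 3 main fibre chains the groups did not overlap. Col6a1, at 3.12 and 5.70 FPKM against 2.09 and 2.03 FPKM, and Col6a2, at 2.09 and 2.64 FPKM against 1.11 and 1.16 FPKM, were placed alike, with log2 fold changes of 1.04 and 0.99 that were not called. Replicate 2 of the label Crtc1-/- was the higher library for all 5 of these genes. Smooth muscle markers were 0.00180% and 0.00194% of counts in liver labelled Crtc1-/- against 0.000350% and 0.000577%, and all 4 of them that were tested passed the study's threshold. Stellate cell markers, of the main collagen-making cell of liver, were 0.00439% and 0.00632% against 0.00308% and 0.00203%. Epididymis markers were 0.00671% and 0.000936% against 0.000147% and 0.000133%, and Gpx5 and Lcn8, the 2 of that list that were tested, both passed the study's threshold with log2 fold changes of 4.65 and 4.54. The part of these cells in the collagen values was not tested.

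Col15a1 was the liver collagen that was lower by the study's threshold. It stood at 0.83 and 0.53 FPKM in liver labelled Crtc1-/- and at 1.60 and 1.61 FPKM in liver labelled Crtc1+/+ (log2 fold change -1.28, SE 0.35, edgeR adjusted p = 0.159), the opposite side from eWAT. Col18a1, the collagen with by far the highest FPKM in liver, stood at 177 and 112 FPKM against 153 and 162 FPKM, with both extremes under the label Crtc1-/- (log2 fold change -0.24, SE 0.29, not called). Col4a1 stood at 6.76 and 6.75 FPKM against 4.98 and 5.21 FPKM and Col4a2 at 5.45 and 5.61 FPKM against 4.27 and 4.52 FPKM. The groups did not overlap for either chain, yet the log2 fold changes of 0.35 (SE 0.24) and 0.28 (SE 0.24) were not called. Col5a3 stood at 1.59 and 0.96 FPKM against 1.52 and 1.34 FPKM, with overlapping groups. Of the 23 collagens not tested in liver, the highest count in any liver library was 8.

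**Figure D5:**
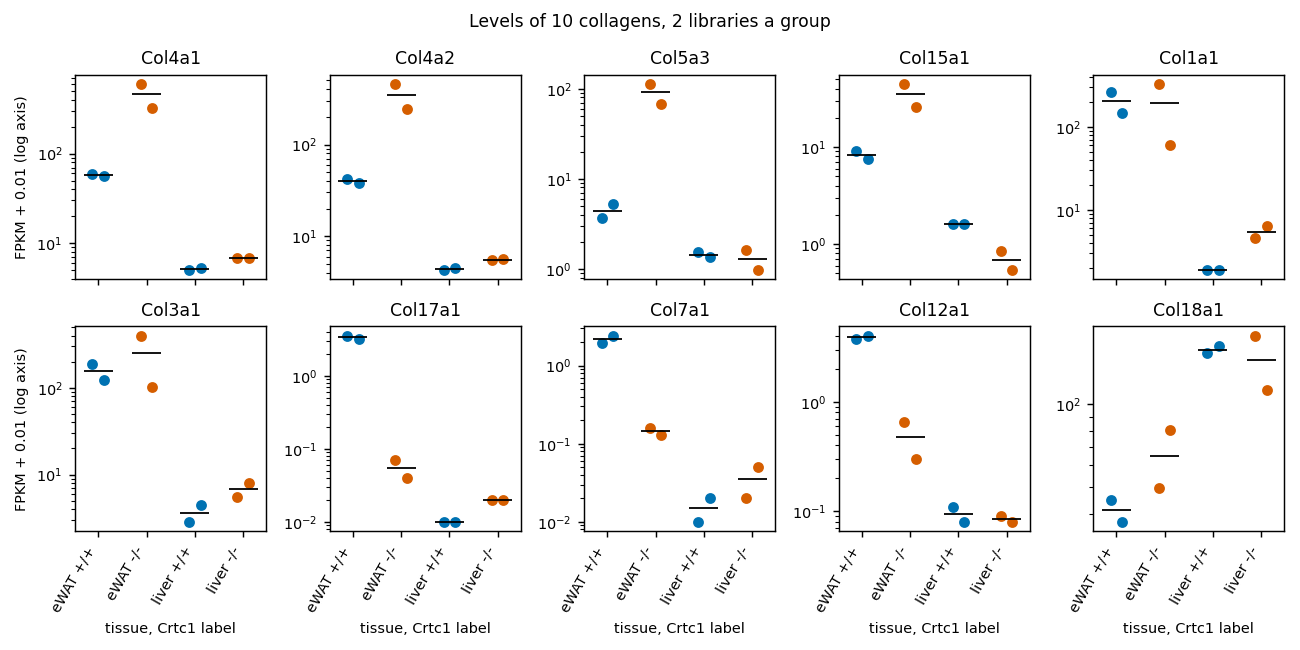
FPKM + 0.01 on log axes, each panel with its own range, for 10 collagens in the 4 groups (2 points a group, horizontal lines are means); blue is labelled Crtc1+/+ and orange Crtc1-/-. Col4a1, Col4a2, Col5a3 and Col15a1 lie higher and Col17a1, Col7a1 and Col12a1 lower in eWAT labelled Crtc1-/-, while Col1a1 and Col3a1 of that group span the other eWAT values.

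The change between labels in eWAT was compared with that in liver in 1 model over the 8 libraries. It differed for 7 of the 38 collagens tested at an edgeR adjusted p under 0.05, where 6.94% of all genes were called (3.78% with a higher and 3.16% with a lower eWAT change). The eWAT change exceeded the liver change for Col5a3, Col15a1, Col4a2 and Col4a1, by 4.76, 3.56, 3.04 and 2.83 on the log2 scale (SE 0.52, 0.40, 0.49 and 0.51; edgeR adjusted p = 0.00950, 0.00950, 0.0177 and 0.0237). It lay below the liver change for Col12a1, with a difference of -2.73 (SE 0.52, edgeR adjusted p = 0.0293). For Col17a1 and Col7a1 the fitted differences of -9.84 and -6.53 rest on liver libraries with at most 1 and 6 counts, and their size depends on the prior count. For Col1a1, which passed the study's threshold in liver and not in eWAT, the difference was -1.47 (SE 0.91, edgeR adjusted p = 0.330). Without replicate 1 or replicate 2 of liver labelled Crtc1+/+ no collagen was called, and without either library of eWAT labelled Crtc1+/+ or of liver labelled Crtc1-/- there were 2.

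The tissues were compared separately within each label, with the eWAT libraries labelled Crtc1+/+ holding the epididymis markers given above and fewer adipocyte markers. Within the label Crtc1+/+, 30 of 38 collagens were higher and 1 lower in eWAT at an edgeR adjusted p under 0.05, 31 of 38 where 54.9% of all genes were called (35% higher and 19.8% lower). Within the label Crtc1-/-, 22 were higher and 1 lower, 23 of 38 where 27.8% of all genes were called (18.9% higher and 8.89% lower). The median log2 difference, eWAT minus liver, was 4.05 and 3.47 over the collagens and 0.61 and 0.20 over all genes tested. With collagens at or under the floor in liver set at their lower bound, the medians were 3.88 (16 such genes) and 3.33 (9 such genes). Col18a1 was the collagen lower in eWAT under both labels, by -3.41 (SE 0.55, edgeR adjusted p = 0.00331) within Crtc1+/+ and -2.18 (SE 0.52, edgeR adjusted p = 0.0244) within Crtc1-/-. The latter call was lost with library-size scaling and without replicate 1 of eWAT labelled Crtc1-/- or any 1 liver library. Without replicate 1 or replicate 2 of liver labelled Crtc1-/-, the number higher in eWAT within that label was 11 or 12.

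In this model the tissue differences differ between the labels, for every gene, by the difference of genotype changes given above. The values within each label are given here and are not a further test. Col4a1 was higher in eWAT by 2.10 on the log2 scale within the label Crtc1+/+ (SE 0.37, edgeR adjusted p = 0.00423) and by 4.94 within Crtc1-/- (SE 0.41, edgeR adjusted p = 0.000609). Col5a3 did not differ between the tissues within Crtc1+/+ at this threshold (0.23, SE 0.35, edgeR adjusted p = 0.590) and was higher in eWAT by 4.997 within Crtc1-/- (SE 0.41, edgeR adjusted p = 0.000582). Col1a1 and Col1a2 were higher in eWAT by 5.36 and 4.62 within Crtc1+/+ (edgeR adjusted p = 0.00225 and 0.00185) and by 3.89 and 3.46 within Crtc1-/- (edgeR adjusted p = 0.0104 and 0.00787). Several epithelial and low-level collagens were at or under the floor of 3 counts in liver. Against that floor, Col17a1 was at least 119-fold higher in eWAT within the label Crtc1+/+ and at least 1.46-fold higher within Crtc1-/-, and Col6a4 at least 304-fold and 8.83-fold higher. The eWAT libraries of these bounds labelled Crtc1+/+ are those with the epididymis markers.

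The order of levels in eWAT was read on the FPKM scale. Averaged over the 4 eWAT libraries the highest was Col4a1, at 261 FPKM, with Col3a1 next at 203 FPKM. The range of Col4a1 (55.6 to 605 FPKM) held that of Col3a1 (101 to 400 FPKM), and the order turned with the label. Col4a1 lay above Col3a1 in both eWAT libraries labelled Crtc1-/- and below it in both labelled Crtc1+/+. The ratio of Col4a1 to Col1a1 FPKM was 1.83 and 5.37 in eWAT labelled Crtc1-/- but 0.227 and 0.380 under the label Crtc1+/+. The ratio of Col3a1 to Col1a1 was 1.21 and 1.68 against 0.707 and 0.839. In each ratio the 2 labels did not overlap in eWAT, and the liver values, 1.06 to 2.77 for the first and 1.22 to 2.34 for the second, overlapped with those of eWAT.

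Genes that make, bind, degrade or sense collagen were counted from lists of the pathway, in the same eWAT test. Of the enzymes and chaperones that make collagen, 4 of 30 tested were higher and 1 lower at an edgeR adjusted p under 0.05, where 12.2% of all genes were called (6.65% higher and 5.54% lower). The list median was 1.18, against -0.047 over all genes. Plod1, a lysyl hydroxylase, stood at 99.4 and 56.5 FPKM in eWAT labelled Crtc1-/- against 21.0 and 16.56 FPKM (log2 fold change 2.34, edgeR adjusted p = 0.0255). Lox, which cross-links the fibres, stood at 14.3 and 9.48 FPKM against 3.09 and 4.24 FPKM (log2 fold change 1.98, edgeR adjusted p = 0.0313). P4ha2, a prolyl hydroxylase subunit, was the one that fell, at 12.6 and 6.02 FPKM against 58.2 and 58.9 FPKM (log2 fold change -2.38, edgeR adjusted p = 0.0269).

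Of the matrix proteins that bind collagen, 6 of 19 tested were called and all were higher, where 6.65% of all genes were higher and 5.54% lower, and the list median was 1.25. The called genes included Prelp, a leucine-rich proteoglycan that ties collagen to basement membranes, at 348 and 247 FPKM against 24.7 and 14.8 FPKM (log2 fold change 4.21, edgeR adjusted p = 0.0173), and Dpt, the fibre-organising dermatopontin, at 260 and 117 FPKM against 22.1 and 16.2 FPKM (log2 fold change 3.58, edgeR adjusted p = 0.0197). Of the other basement membrane proteins, 5 of 16 were higher and 3 lower, where 6.65% of all genes were higher and 5.54% lower. Lama4, the laminin chain of vessels and adipocytes, stood at 29.8 and 18.4 FPKM against 5.58 and 4.68 FPKM (log2 fold change 2.52, edgeR adjusted p = 0.0193), and Pxdn, which cross-links type IV collagen, at 71.0 and 46.9 FPKM against 5.59 and 8.69 FPKM (log2 fold change 3.37, edgeR adjusted p = 0.0193). Lama1, an epithelial laminin chain, was lower, with a log2 fold change of -3.07 (edgeR adjusted p = 0.0227).

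Of 11 collagen-degrading enzymes and inhibitors tested, Timp4, a metalloproteinase inhibitor of adipocytes and heart, was the one called, where 12.2% of all genes were, at 229 and 132 FPKM against 16.1 and 22.1 FPKM (log2 fold change 3.54, edgeR adjusted p = 0.0170). Of 10 collagen receptors tested, edgeR called none at an adjusted p under 0.05. At an unadjusted p under 0.05 there were 2, where 33.3% of all genes were. In liver, edgeR called no gene of these 5 lists at an adjusted p under 0.05, with 5 of 24, 8 of 16, 1 of 14, 2 of 7 and 1 of 8 genes tested at an unadjusted p under 0.05 in the order given, where 17.3% of all genes were. By the study's threshold 1 was called there, where 4.27% of all genes were (2.84% higher and 1.43% lower). That gene was Pcolce, which speeds the trimming of fibrillar procollagen. It stood at 8.55 and 9.04 FPKM in liver labelled Crtc1-/- against 2.91 and 3.62 FPKM (log2 fold change 1.37, SE 0.29, edgeR adjusted p = 0.121).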

How the data were processed

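RNA-seq of liver and eWAT from 2 mice per genotype label was carried out at BGI. The authors deposited 2 tables over 19348 genes, estimated counts (expected counts, of which 3 collagens had values that were not whole) and FPKM, in which fragment counts are scaled to transcript length and sequencing depth. The submitters' processing notes name HISAT, Bowtie2 and GRCm38.p6, and the counting tool, its strand setting and the annotation are not given in the sources used here. Reads shared between related genes, or between a gene and an antisense partner, would depend on these settings.

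Counts were rounded. Genes were filtered with filterByExpr, scaled by TMM within each tissue and tested with edgeR 4.0.16 (R 4.3.3, glmQLFit and glmQLFTest), with p-values adjusted by the Benjamini-Hochberg method over all genes. Comparisons of tissues and of the 2 genotype changes used 1 model with 4 groups over the 8 libraries. Each SE of an edgeR test was worked back as the absolute log2 fold change over the square root of the F statistic. TMM factors were 0.818 to 1.14 in eWAT and 0.974 to 1.04 in liver. Levels are deposited FPKM, differences are from counts, and a floor of 3 counts was used for genes near 0. Floors cover counting error only. The study describes its replicates as independent biological samples. It reports 2 mice of each genotype with liver and eWAT taken, so the tissues may share animals, while the labels do not pair the libraries. The models over the 8 libraries treated all libraries as independent. The study used limma after the normalizeBetweenArrays function, with the unit and the method of that step not given in the sources used here. Quantile-normalised log2 FPKM tested with limma 3.58.1 (pseudocounts 1 and 0.1) served as an alternative here, beside DESeq2 1.42.0, other filters and scalings, all 8 libraries in 1 fit, a replicate block, and each library left out in turn. The main edgeR test of the genotype labels within each tissue was tried on simulated counts.

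Collagens named with a value in every library are those past a log2 fold change of 1 with an unadjusted p under 0.01 in a genotype comparison, the 3 with the highest mean FPKM in each tissue, their partners in a fibre or network, and those called between tissues' genotype changes. Up to 3 called genes were named per pathway list, and other genes named were chosen after their values were seen. The members and lists were chosen with earlier results of these data known. Positions are from GENCODE M21 (GRCm38) and upstream sequences from RefSeq (GRCm38.p6). Figures were drawn with matplotlib 3.10.9.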

Additional observations from a re-analysis of the deposited data

Results flagged for a closer look

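The difference between the genotype change in eWAT and that in liver passed the edgeR test at an adjusted p under 0.05 for 7 collagens. On the log2 scale, eWAT change minus liver change, it was 4.76 for Col5a3, 3.56 for Col15a1, 3.04 for Col4a2 and 2.83 for Col4a1. It was -2.73 for Col12a1, -6.53 for Col7a1 and -9.84 for Col17a1, of which the last pair had at most 6 and 1 counts in any liver library. Between 2 and 7 of the 11 alternatives left each of these 7 differences at an adjusted p above 0.05, with no change of sign.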

How the results depend on the processing

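In eWAT the counts of collagens called were 5 higher and 4 lower at an adjusted p under 0.05, and 5 higher and 7 lower by the study's threshold. DESeq2 gave 9 and 10 at the adjusted p and 9 higher by the study's threshold, all 8 libraries in 1 fit gave 8 and 10, and 8, and library-size scaling gave 7 lower. Limma on FPKM with a pseudocount of 1 or 0.1 gave 3 and 4 lower by the study's threshold. Leaving out each library gave 0 to 10 higher and 0 to 13 lower at the adjusted p, and 1 to 10 higher and 2 to 13 lower by the study's threshold. The ends were 0 calls without either library labelled Crtc1+/+, where no gene at all was called, 10 higher without replicate 2 of the label Crtc1-/- and 13 lower without replicate 1. In liver, none was called at the adjusted p, and DESeq2 and no expression filter gave 1 higher. By the study's threshold, 1 was higher. DESeq2 and no expression filter gave 2, removal of marker genes, library-size and upper-quartile scaling and a mean count of at least 50 gave 3, and all 8 libraries in 1 fit gave 0. For the 1 lower, limma with a pseudocount of 1 gave 0. With a liver library left out, which leaves 1 in its group, the collagens called also depended on the library. For eWAT against liver, leaving out a library gave 11 to 23 higher and 0 to 1 lower within Crtc1-/-, where DESeq2 gave 2 lower and library-size scaling 0, and 21 to 29 higher and 1 lower within Crtc1+/+. For the difference of the genotype changes it gave 0 to 6 higher and 0 to 7 lower. The ratio of summed collagen FPKM was 1.32 to 3.17 in eWAT and 0.883 to 1.16 in liver with a library left out, an alternative added after seeing the data, and 2.34 and 0.990 on CPM. The cause of these shifts was not tested.

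Signs turned for some genes that were not called in the main fit. In eWAT, Col1a1 was -0.53 and -0.54 with limma, -0.057 with upper-quartile and -0.075 with library-size scaling. With a library left out it ranged from -1.30 (without replicate 1 of the label Crtc1-/-) to 0.86, and was -0.16 without replicate 2 of the label Crtc1+/+. Col3a1 ranged from -0.15 (without replicate 1 of the label Crtc1-/-) to 1.53, and Col1a2 from -1.17 to 0.44 (without replicate 2 of that label), with 0.13 without replicate 1 of the label Crtc1+/+. In liver, Col4a5 was -0.044 and -0.16 with limma, -0.45 without replicate 1 of the label Crtc1-/-, and ranged from -0.51 to 0.99. The other liver ranges were -0.62 to 0.057 for Col18a1, -0.021 to 1.09 for Col5a2, -0.64 to 0.11 for Col5a3, -0.41 to 0.014 for Col12a1 and -0.36 to 0.11 for Col6a3. The median of all eWAT genes moved from -0.047 to -0.25 with upper-quartile and -0.35 with library-size scaling. 

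The replicate numbers pair no samples by the labels. Deviations of same-numbered libraries correlated at -0.161 between the eWAT groups and 0.0665 between the liver groups, and at 0.00947 between the tissues within Crtc1-/- and 0.278 within Crtc1+/+. With a replicate block 0 collagens and 0 genes in all were called at the adjusted p in eWAT, 4 were lower by the study's threshold and Col1a1 was -0.16, while in liver 1 collagen was called higher, and within Crtc1-/- 2 were lower in eWAT than in liver.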
